A study of Mus musculus with 29 samples.

Results

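The genes described are 4 aquaporins (Aqp1, Aqp2, Aqp3, Aqp4), the vasopressin receptor gene Avpr2, the 3 subunits of the epithelial sodium channel (Scnn1a, Scnn1b, Scnn1g), Fxyd4 and Hsd11b2. They were chosen by name, 10 in all, of the 13982 genes in the table. Rows were found for 9 of them, and Avpr2 was not analysed here. The values came from 14 Ion Torrent libraries of (NZBxNZW)F1 mice, a cross that develops lupus nephritis with age. From proteinuric mice there were 4 kidney libraries (H6, 39 weeks old; H20, 36 weeks; H115, 25 weeks; H117, 32 weeks), 3 libraries of tertiary lymphoid structures (TLS; H6, H20 and H115) and 3 of lymph node (H6, H20 and H117). A further 3 lymph node libraries came from mice positive for anti-dsDNA antibody (D10, 28 weeks; D11, 29 weeks; L25, 18 weeks), and 1 lymph node library was labelled young (C45, 4 weeks). TLS, lymphoid aggregates that form in the inflamed kidney, were dissected by hand under a loupe, and the kidney tissue came from the same kidney. No treatment or engineered allele was named for any group. The labels give more kidney libraries than the study's text does, and all those labelled were kept.

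Aquaporins are channels that let water cross cell membranes. In the principal cells of the collecting duct, vasopressin acts through Avpr2 and cyclic AMP to place Aqp2 in the apical membrane, and water leaves across the basolateral membrane through Aqp3 and Aqp4. Aqp1 serves the proximal tubule and the descending thin limb, and is also made by endothelium and red cells. The epithelial sodium channel takes up sodium in the same principal cells under aldosterone, Hsd11b2 inactivates glucocorticoids so that the mineralocorticoid receptor answers to aldosterone, and Fxyd4 (CHIF) is a regulator of the sodium pump.

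Promoter sequence was looked up for the members. Aqp2 and Fxyd4 had the highest TLS values relative to kidney, and Aqp1 alone was read in lymph node. In TLS, Scnn1b was below kidney in each mouse, as were Aqp1, Scnn1a and Hsd11b2. RefSeq promoters (GRCm38.p6) were matched for 7 of the 10 genes, counting Avpr2. Shown are the 250 bases before the RefSeq start, 5′ to 3′ on the strand of the gene. Aqp2 is on the + strand at chr15:99578806-99579055, Fxyd4 on the - strand at chr6:117937336-117937585, Scnn1b on the + strand at chr7:121864788-121865037 and Aqp1 on the + strand at chr6:55336049-55336298. Capitals mark matches on either strand to the core of the cyclic AMP response element (TGACG), to GATA sites (AGATAA or AGATAG, with A or T as their first letter), to a steroid receptor half-site (AGAACA) or to a TATA box (TATAAA).
Aqp2: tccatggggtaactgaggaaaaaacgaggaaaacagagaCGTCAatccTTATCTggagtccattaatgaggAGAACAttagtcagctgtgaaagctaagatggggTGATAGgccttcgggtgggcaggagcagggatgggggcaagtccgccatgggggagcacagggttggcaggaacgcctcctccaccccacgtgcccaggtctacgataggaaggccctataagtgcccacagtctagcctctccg
Fxyd4: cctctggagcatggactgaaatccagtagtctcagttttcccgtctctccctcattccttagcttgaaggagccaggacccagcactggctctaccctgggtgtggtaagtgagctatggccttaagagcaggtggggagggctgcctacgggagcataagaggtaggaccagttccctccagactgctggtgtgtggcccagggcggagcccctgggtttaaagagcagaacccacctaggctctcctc
Scnn1b: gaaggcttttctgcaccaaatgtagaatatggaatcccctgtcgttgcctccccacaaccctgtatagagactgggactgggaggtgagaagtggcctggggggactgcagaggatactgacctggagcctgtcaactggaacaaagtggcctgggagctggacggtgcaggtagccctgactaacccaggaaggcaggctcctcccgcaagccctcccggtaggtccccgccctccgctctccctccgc
Aqp1: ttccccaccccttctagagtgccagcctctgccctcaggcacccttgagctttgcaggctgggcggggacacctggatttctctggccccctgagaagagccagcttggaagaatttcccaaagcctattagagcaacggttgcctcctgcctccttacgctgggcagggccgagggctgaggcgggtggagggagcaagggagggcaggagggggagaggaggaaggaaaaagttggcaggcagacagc

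In Aqp2, whose induction through cyclic AMP is well known, the window held 1 match to the cyclic AMP core, at -211 to -207 from the start, 2 GATA matches, at -202 to -197 and -145 to -140, and 1 steroid half-site at -179 to -174. The windows of Fxyd4, Scnn1b and Aqp1 held no match to these letters. Among all 32851 promoters of the same length, 17.8% held the cyclic AMP core, 26.5% a GATA match, 16.1% the half-site and 12.4% the TATA letters, so single matches are common. By the gene annotation (GENCODE M21, GRCm38), Fxyd4 and Aqp1 begin at other positions than in RefSeq, and the Fxyd4 window lies within the annotated gene.

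The depth was 343825 to 443379 reads per library. The values are normalized read counts, (reads + 1) divided by a size factor, so a gene with no read was listed at 0.786 to 1.77 and 3 reads were worth 3.14 to 7.10. Nuclear ribosomal RNA took 56.0% of the reads in kidney H117, 32.1% in lymph node H6 and 22.3% in TLS H115, and at most 5.99% elsewhere. B-cell genes (7 of 8 in the table) summed to 0 to 23.6 in kidney and 335 to 495 in TLS, so the labelled tissues differed in these markers. Urothelial genes (10 of 12 in the table) summed to 0 to 101 in kidney and 193 to 1011 in TLS. Their part in the results on TLS was not tested. In bulk tissue, fewer cells of a type and less RNA per cell cannot be told apart.

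Of the 4 aquaporins, Aqp2 had a higher mean in TLS than in kidney, a difference within the spread of the libraries. Its value in kidney was 38.0 (H6), 44.7 (H20), 103 (H115) and 37.3 (H117), and in TLS 148 (H6), 62.1 (H20) and 45.8 (H115). The highest value of all was in a TLS library, and the groups overlapped. As a share of the kidney mean of 55.8, TLS stood at 264% in H6, 111% in H20 and 82.1% in H115, and the kidney libraries themselves lay between 66.8% and 185%. From the reads alone, the 95% exact binomial interval of the H6 share was 221% to 335%. The intervals given for shares were taken on the summed reads of the kidney libraries, without the added read, and cover counting error only. Against the kidney of the same mouse, TLS stood at 388% in H6 and 139% in H20 but at 44.4% in H115, whose kidney was far above the other 3. The higher mean in TLS rested on TLS H6, since without it the mean share of the kidney mean was 96.7%.

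Aqp1 was the most abundant member in kidney and varied with the mouse. Its kidney value was 136 (H6), 90.3 (H20), 545 (H115) and 348 (H117), and its TLS value 128, 81.7 and 200 in H6, H20 and H115. The TLS libraries were at 45.8%, 29.2% and 71.3% of the kidney mean, while the kidney libraries ranged from 32.3% to 195% of it. In H6 and H20, TLS and kidney of the same mouse were close, at 94.0% and 90.6%, and in H115 TLS was at 36.6%. The summed proximal tubule genes (19 of 20 in the table) were likewise higher in kidney H115 (22272) and H117 (18674) than in H6 (8267) and H20 (10572), and red cell genes (6 of 9 in the table) summed to 106 to 3078 in kidney and 79.7 to 8745 in TLS. What part these had in the Aqp1 values was not tested.

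Aqp3 and Aqp4, the basolateral channels, were lower and did not separate the tissues. Aqp3 had values of 11.5, 9.28, 35.9 and 17.7 in kidney H6, H20, H115 and H117, and of 19.5, 10.2 and 16.4 in TLS H6, H20 and H115. All 3 TLS values lay within the kidney range. Aqp4 was 2.65, 0.843, 60.3 and 19.5 in the same kidney libraries and 5.09, 8.65 and 29.4 in TLS. Kidney H20 had no Aqp4 read and kidney H115 had 51, so the TLS shares of 24.4%, 41.5% and 141% stood beside kidney libraries at 4.05% to 289% of their mean. Aqp4 overlaps an antisense gene, and the strand of the reads was not stated.

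Of the sodium channel subunits, the alpha subunit was lower in TLS. Scnn1a was 9.73, 15.2, 26.7 and 14.2 in kidney H6, H20, H115 and H117 and 4.24, 4.72 and 8.72 in TLS H6, H20 and H115. Every TLS library was below every kidney library, which was so for 12% of the 7382 genes tested. The shares were 25.8% (interval 5.97% to 61.4%), 28.7% (8.21% to 65.0%) and 53.1% (19.6% to 112%) of the kidney mean, and 43.6%, 31.1% and 32.7% of the kidney of the same mouse. These rest on 4, 5 and 7 reads in TLS and 56 in the kidney libraries together.

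Scnn1b, the beta subunit, was 13.3, 16.9, 13.9 and 7.10 in kidney H6, H20, H115 and H117, and 11.02, 10.2 and 5.45 in TLS H6, H20 and H115. Its TLS shares were 86.2%, 79.9% and 42.6%, and each TLS library was below the kidney of its own mouse. Scnn1b overlaps Cog7 on the opposite strand, which had 114 reads over the 14 libraries, so some reads may have been assigned to either gene. Scnn1g, the gamma subunit, was 8.84, 5.90, 5.79 and 7.10 in kidney H6, H20, H115 and H117, and 6.78, 7.07 and 1.09 in TLS H6, H20 and H115. The last of these was a library without a read, where 3 reads would have been listed at 4.36. The Scnn1g shares were 98.2%, 102% and 15.8% of the kidney mean. Both subunits rest on few reads, 47 in kidney and 28 in TLS for Scnn1b and 22 and 15 for Scnn1g.

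Hsd11b2 was the steadiest member in kidney, at 31.8, 48.9, 42.9 and 37.3 in H6, H20, H115 and H117 (CV 18.3%, n = 4). In TLS it was 27.1, 19.6 and 17.4 in H6, H20 and H115, below every kidney library, which was so for 12% of the 7382 genes tested. The shares were 67.4%, 48.8% and 43.4% of the kidney mean, beside kidney libraries at 79.1% to 122%. Fxyd4 went the other way in 2 of the 3 TLS libraries. It was 4.42, 5.90, 5.79 and 1.77 in kidney H6, H20, H115 and H117 (4, 6, 4 and 0 reads) and 21.2, 19.6 and 4.36 in TLS H6, H20 and H115 (24, 24 and 3 reads). The shares were 474% (interval 270% to 1138%), 439% (251% to 1054%) and 97.5% (16.1% to 313%), with H6 and H20 above all kidney libraries and H115 within their range.

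**Figure D1:**
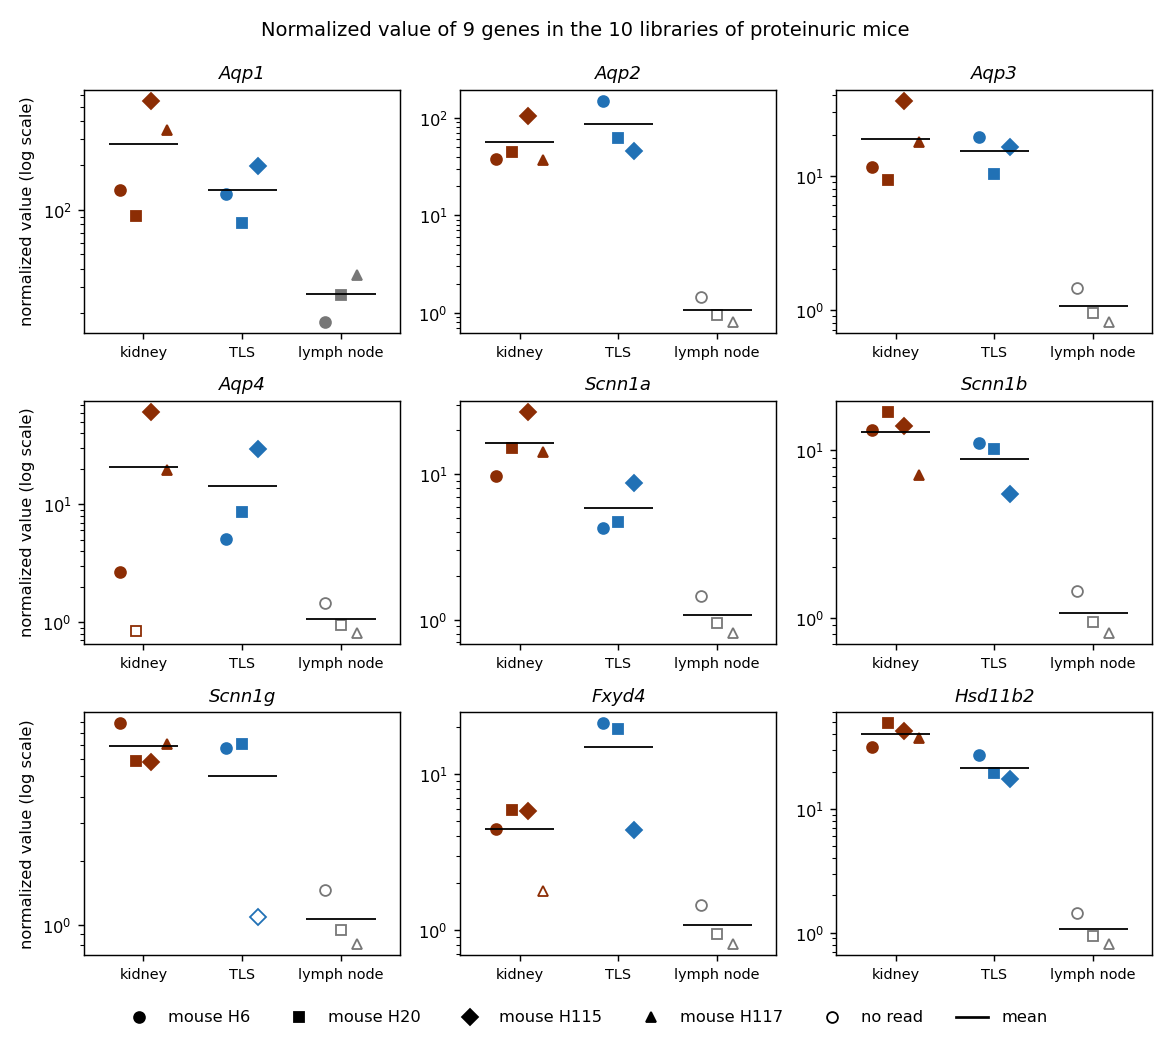
Normalized value (log scale) of 9 genes in each kidney, TLS and lymph node library of proteinuric mice, with 1 symbol per mouse, open symbols for libraries without a read and a bar at the mean. Aqp2 reached 148 in TLS H6, and all genes but Aqp1 were without a read in lymph node. Scnn1a and Hsd11b2 were lower in every TLS library than in every kidney library, as were 12% of the 7382 genes tested.

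**Figure D2:**
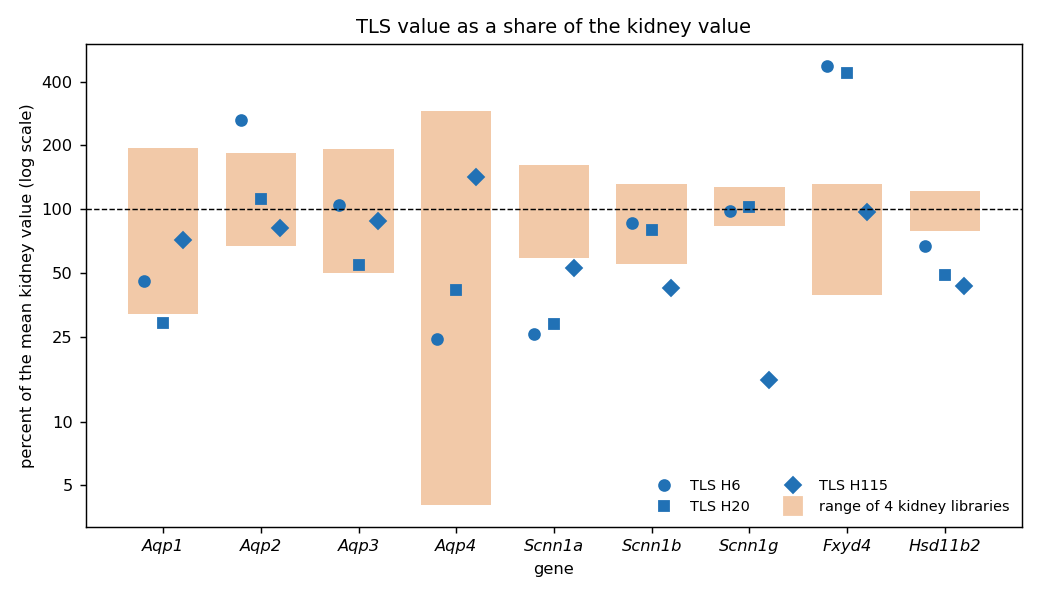
Value in each TLS library as a percent of the mean of the 4 kidney libraries (log scale), with the range of the kidney libraries shaded. Scnn1a and Hsd11b2 lay below the shaded range in all 3 TLS libraries, which was so for 12% of the 7382 genes tested. Fxyd4 lay above it in H6 and H20, and Aqp2 in H6.

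Over the 9 genes, the median share was 86.2% in TLS H6, 54.9% in TLS H20 and 71.3% in TLS H115. Against the kidney of the same mouse it was 94.0%, 110% and 40.7%, so the library with the lowest share depended on the kidney it was set against. Kidney H115 had the highest value of the 4 kidney libraries for Aqp1, Aqp2, Aqp3, Aqp4 and Scnn1a. Without it the median share in TLS H115 was 104%. The mean share over the 3 TLS libraries ran from 35.8% ± 14.98 (SD, n = 3) for Scnn1a and 48.8% ± 21.2 for Aqp1 to 153% ± 98.0 for Aqp2 and 337% ± 208 for Fxyd4.

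Ratios of genes within a library do not depend on its size factor. Of the 36 pairs among the 9 genes, 7 had ratios that did not overlap between kidney and TLS. That is a smaller share than the 28.1% of all pairs among the 7382 genes tested, so it is no result about the members. Of the 7, 4 included Fxyd4, 3 Scnn1a, 2 Aqp2 and 2 Hsd11b2. The ratio of Aqp2 to Hsd11b2 was 0.914 to 2.41 in kidney and 2.63 to 5.44 in TLS. The ratio of Aqp2 to Scnn1a was 2.63 to 3.91 in kidney and 5.25 to 34.8 in TLS, and that of Fxyd4 to Hsd11b2 was 0.0476 to 0.139 and 0.25 to 1. These pairs were picked out after the values were seen and were not tested. In all 7 pairs, Aqp2, Aqp3 or Fxyd4 stood higher in TLS relative to a sodium channel subunit or Hsd11b2, but the pairs share genes and are not independent. Fxyd4 had 0 to 6 reads in the kidney libraries and Scnn1a 4 to 7 in TLS.

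Whether kidney and TLS of proteinuric mice differed was tested with limma on log2(value + 1), with Benjamini-Hochberg adjustment over the 7382 genes whose mean value reached 5. Scnn1g fell below that mean, which left 8 of the 9 genes. Scnn1a alone was called, higher in kidney, with a log2 fold change of 1.31 (SE 0.37, 95% interval 0.51 to 2.11, adjusted p = 0.0308), so 1 of 8 members was called, in a fit that called 14.7% of all genes (6.07% higher in kidney and 8.62% higher in TLS). Scnn1a passed the filter mainly through kidney (mean 16.4), since its means were 5.89 in TLS and 1.07 in lymph node. Its call with the filter is therefore not taken as support for a difference. With no filter on low values, limma's adjusted p for Scnn1a was 0.042. Hsd11b2 narrowly missed the threshold at 0.89 (SE 0.28, interval 0.276 to 1.495, adjusted p = 0.0530). Fxyd4 had -1.39 (SE 0.53, interval -2.55 to -0.23, adjusted p = 0.106), that is 2.62-fold more in TLS on this scale. It passed the filter through TLS (mean 15.1), since its means were 4.47 in kidney and 1.07 in lymph node. The p-values rest on 1 estimate of the spread over the kidney, TLS and lymph node libraries, and of the tested members Aqp1 alone had a read in lymph node. In a fit of only kidney and TLS, the adjusted p of Scnn1a was 0.0568. Kidney and TLS of H6, H20 and H115 shared the mouse.

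For the other members the intervals were wide. They spanned -0.50 to 2.05 for Aqp1, -1.54 to 0.42 for Aqp2, -0.79 to 1.03 for Aqp3, -2.71 to 2.03 for Aqp4 and -0.29 to 1.24 for Scnn1b, so these data show neither a difference nor its absence. The Scnn1a call did not depend on the mouse as a block, where its log2 fold change was 1.40 (adjusted p = 0.0166), but was lost in 11 of 19 alternatives. The adjusted p for Scnn1a was 0.0629 and 0.0819 with edgeR's quasi-likelihood test and 0.102 with DESeq2, and 0.0588 to 0.130 without kidney H20, H115 or H117 or without TLS H6 or H20. Fxyd4 was called in 3 of 19 alternatives, each without TLS H115. Its log2 fold change was then -1.76 to -2.19. Since Fxyd4 passed the filter through TLS, where it was high, these calls are no support for a difference.

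**Figure D3:**
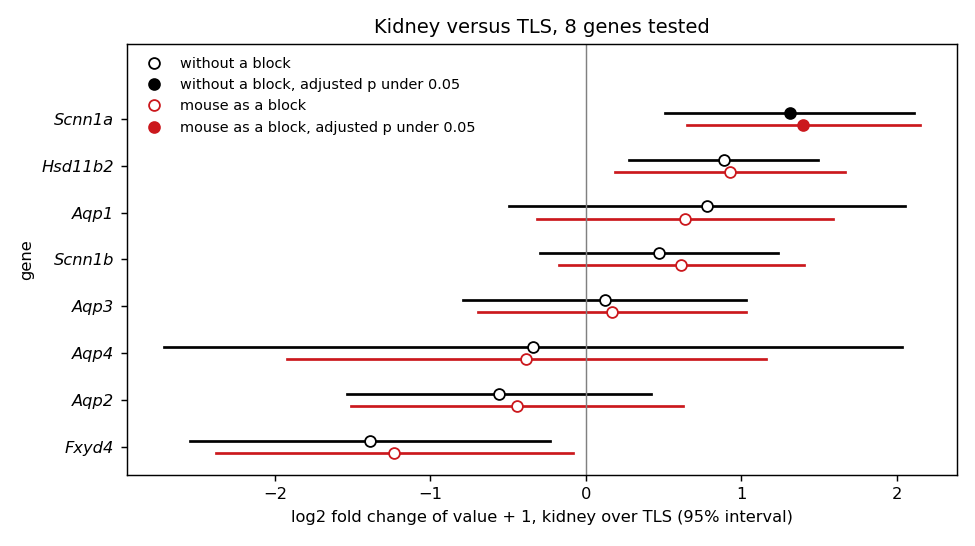
Log2 fold change of value + 1, kidney over TLS, with its 95% interval, for the 8 genes tested, with and without the mouse as a block. Filled points passed an adjusted p of 0.05, and only Scnn1a did, at 1.31 without the block and 1.40 with it. Scnn1a passed the filter on low values mainly through kidney.

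Lymph node was the background in which collecting duct genes should be near 0. Aqp1 was read there, at 17.4, 26.5 and 36.4 in the proteinuric lymph nodes H6, H20 and H117, 27.8 to 51.6 in the antibody-positive ones and 29.5 in the library labelled young. The other 8 genes had no read in any of the 7 lymph node libraries. Set against 3 reads in the shallowest proteinuric lymph node library (a value of 5.80), mean Aqp2 was at least 9.63-fold higher in kidney and at least 14.7-fold higher in TLS. For Hsd11b2 the bounds were at least 6.94-fold and 3.69-fold, and for the other genes without a read they were lower. Mean Fxyd4 in kidney (4.47) and mean Scnn1g in TLS (4.98) were below the value of 5.80, and Scnn1a in TLS (5.89) was barely above it. By this bound, no excess over lymph node was shown for these. They had 14 (Fxyd4 in kidney), 15 (Scnn1g in TLS) and 16 (Scnn1a in TLS) reads, where lymph node had no read. Aqp1 was 10.4-fold higher in kidney and 5.10-fold higher in TLS than in proteinuric lymph node.

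In the same limma fit, Aqp1 was called higher in kidney than in lymph node (log2 fold change 3.05, SE 0.59, adjusted p = 0.00104), as were 23% of all genes. It was also called lower in lymph node than in TLS (-2.27, SE 0.63, adjusted p = 0.0361), where 8.87% of all genes were higher in TLS. The call against TLS was lost in 9 of 20 alternatives, among them without lymph node H6, H20 or H117 or without TLS H6 or H115 (0.0614 to 0.141). The other tested members passed the filter through kidney and TLS alone, so no test of them against lymph node is given. Since the comparisons share the lymph node and TLS libraries, they are not independent. Between antibody-positive and proteinuric lymph nodes, 0% of 6810 genes were called by limma or by edgeR, with 215 at an unadjusted p under 0.05 in limma. Aqp1 had a log2 fold change of 0.46 (SE 0.37, adjusted p = 0.998) there, and since the antibody-positive lymph nodes were isolated with another kit, stage and kit cannot be told apart.

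Per kb of the longest annotated transcript, the level in kidney was highest for Aqp1 (mean normalized value of 106 per kb), followed by Aqp2 (39.3), Hsd11b2 (21.9), Aqp3 (10.6), Scnn1b (4.93), Scnn1a (4.70), Aqp4 (4.12), Fxyd4 (3.73) and Scnn1g (2.31). In TLS the order per kb began with Aqp2 (60.0), Aqp1 (51.9), Fxyd4 (12.6) and Hsd11b2 (11.6). The differences between Scnn1b, Scnn1a, Aqp4 and Fxyd4 in kidney, and in TLS between Aqp2 and Aqp1 and between Fxyd4 and Hsd11b2, were within the spread of the libraries.

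Other principal cell genes, 13 besides the members, went in both directions. Of the 10 tested, 3 were higher in kidney, beside 6.07% of all genes, and 2 higher in TLS, beside 8.62% (median log2 fold change -0.18, beside 0.01 over all genes). Calb1 of the 3, and both of the 2, Slc14a2 and Krt19, passed the filter only through the tissue where they were high. Their calls are therefore no support for a difference, and no p-value is given for them. Tfcp2l1, a transcription factor of the collecting duct, was 16.8, 16.9, 25.5 and 17.7 in kidney H6, H20, H115 and H117 and 5.94, 7.86 and 7.63 in TLS H6, H20 and H115 (log2 fold change 1.30, limma adjusted p = 0.00822). Calb1, a calcium-binding protein of the distal tubule and connecting segment, was 2.08 higher on the log2 scale in kidney. Its means were 10.7 in kidney, 1.53 in TLS and 1.07 in lymph node. Slc14a2, the urea transporter of the inner medullary collecting duct, went the other way (log2 fold change -2.32). It had 0, 0, 2 and 0 reads in kidney and 25, 6 and 11 in TLS H6, H20 and H115. Krt19, a keratin that urothelium also makes, was lower in kidney by a log2 fold change of -3.67. Its means were 4.78 in kidney, 80.8 in TLS and 1.07 in lymph node.

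The intercalated cells, which secrete acid or base in the same duct, showed fewer reads in TLS for most of their genes. Of the 10 tested, 8 were called higher in kidney, beside 6.07% of all genes, and none lower (median log2 fold change 1.47). Car12, a carbonic anhydrase, was 29.2, 36.3, 46.4 and 30.2 in kidney H6, H20, H115 and H117 and 6.78, 14.2 and 13.1 in TLS H6, H20 and H115 (log2 fold change 1.60, adjusted p = 0.00485). Atp6v0a4, a subunit of the proton pump, had a log2 fold change of 1.68 (adjusted p = 0.00792) and Car15 of 1.68 (0.0134). The bicarbonate transporter Slc4a9, also among the 8, had 1.93 and passed the filter through kidney alone (mean 14.4, beside 3.05 in TLS). Over 7 genes with enough kidney signal, the median share of the kidney mean was 30.4%, 38.4% and 36.9% in TLS H6, H20 and H115. For 5 principal cell genes (the members Aqp2, Aqp4 and Hsd11b2, with Cdh1 and Npnt) it was 67.4%, 52.1% and 82.1%. Their mean shares ran from 47.5% for Npnt to 153% for Aqp2, with Cdh1 at 129%. Against the kidney of the same mouse the medians were 29.1%, 39% and 30.4% for intercalated cell genes, 116.9%, 110% and 45.8% for principal cell genes and 60.3%, 81.5% and 65.5% for thick ascending limb genes, so the order of the libraries depended on the kidney used.

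**Figure D4:**
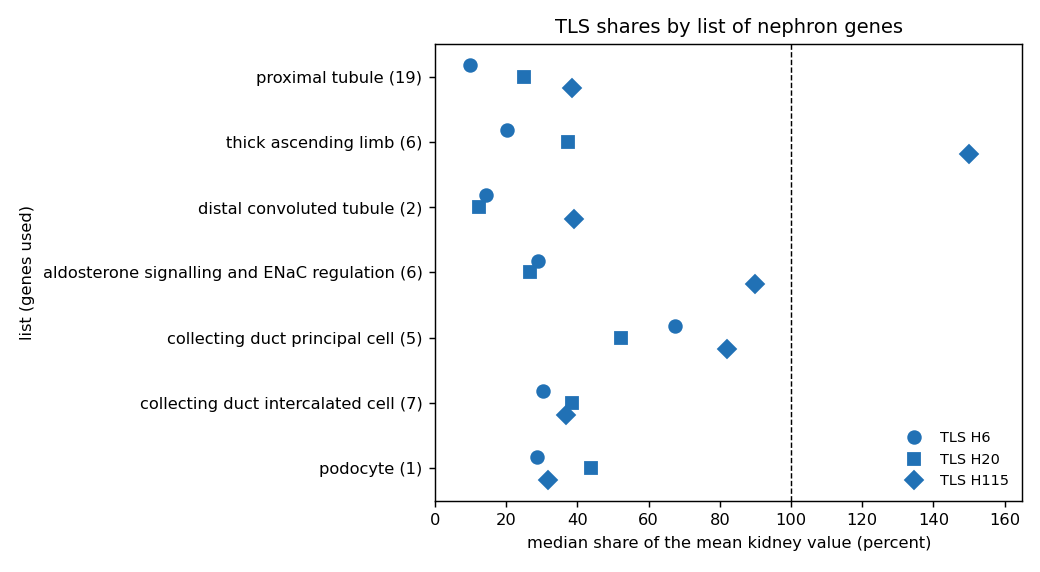
Median share of the mean kidney value (percent) over the genes of each list with a kidney mean of at least 20 and at least 10 times that of lymph node, by TLS library, with the number of genes used. Principal cell genes stood at 52.1% to 82.1% and intercalated cell genes at 30.4% to 38.4%, while the thick ascending limb ranged from 20.2% in H6 to 150% in H115, but from 60.3% to 81.5% against the kidney of the same mouse, which is not plotted.

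Of the genes that act with vasopressin (22 in the table, 13 tested), none was called between kidney and TLS, where 14.7% of all genes were (median log2 fold change -0.02). Gnas, the stimulatory G protein, was 54.8, 39.6, 52.2 and 26.6 in kidney H6, H20, H115 and H117 and 45.8, 40.1 and 43.6 in TLS H6, H20 and H115 (log2 fold change -0.05, adjusted p = 0.949). Prkar1a, a regulatory subunit of protein kinase A, had 0.00 (adjusted p = 0.998). Both were also read in proteinuric lymph node (means 51.1 for Gnas and 46.6 for Prkar1a), so their levels do not mark tubule cells. Adcy6, the adenylyl cyclase used by the vasopressin receptor, had means of 25.7 in kidney, 12.8 in TLS and 3.68 in proteinuric lymph node. It had 0, 4 and 5 reads in lymph node H6, H20 and H117. Since it passed the filter through kidney and TLS, no test of it against lymph node is given.

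Of the genes for aldosterone signalling and sodium channel regulation (18 in the table, 15 tested), none was called between kidney and TLS either. Fxyd2, the gamma subunit of the sodium pump, was 1.72 higher in kidney on the log2 scale (SE 0.54, adjusted p = 0.0528). In lymph node 5 of the 18 (Nr3c2, Prss8, Kcnj1, Wnk4 and Usp2) had no read, so no count of calls against it is given. The summed values were 2320 to 6403 in kidney, 986 to 2449 in TLS and 113 to 151 in proteinuric lymph node. Prss8, a protease that activates the channel, was 111, 89.4, 362 and 126 in kidney H6, H20, H115 and H117 and 28.0, 29.9 and 183 in TLS H6, H20 and H115. The 6 of these genes with enough kidney signal, which other tubule segments also express, had median shares of 28.9%, 26.6% and 89.8% of the kidney mean.

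Of the other aquaporins, 3 of 8 were in the table. Aqp11 was 5.30, 9.28, 33.6 and 23.1 in kidney H6, H20, H115 and H117 and 0.848, 4.72 and 17.4 in TLS H6, H20 and H115, with 0 reads in TLS H6. Its log2 fold change of 1.39 was not called (SE 0.73, adjusted p = 0.237). Aqp6 and Aqp7 had 1 to 15 and 0 to 7 reads in these libraries and were not tested.

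Over the 7 kidney and TLS libraries, the genes whose log2 values followed Aqp2 most closely, among 2350 with a mean of at least 20, were Sec13 (Pearson r 0.952), Rpl28 (0.892), Cryab (0.856), Prrc2a (0.855) and Trmt112 (0.854). These are descriptions over 7 libraries that share mice, depth and scaling, picked from many genes. Sec13 was 31.8 to 47.5 in kidney and 30.5 to 59.4 in TLS, a far smaller spread than that of Aqp2.

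Other ways of scaling moved the median of all genes. Between kidney and TLS it was 0.01 on the log2 scale with the deposited size factors and -0.12 with TMM, and between lymph node and TLS 0.04 and -0.17. Of the genes called between kidney and TLS, 448 were higher in kidney and 636 in TLS, against 272 and 734 with TMM, and between lymph node and TLS the split was 125 and 655, against 38 and 826. Relative to TLS, the log2 fold change of Aqp1, Aqp2, Scnn1a, Scnn1b, Fxyd4 and Hsd11b2 kept its sign in every alternative run. That of Aqp3 and Aqp4 between kidney and TLS did not. For Aqp2 between kidney and TLS it shrank to -0.07 without TLS H6. The mean TLS share of Aqp2 was then 96.7%, below the kidney mean.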

How the data were processed

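The authors made libraries of poly(A) RNA for the Ion Torrent PGM and mapped and counted reads in CLC Genomics Workbench 8 (GRCm38, Ensembl 80). The deposited signal per gene and library is a normalized count. In 100% of the values it was a whole number (tolerance 1e-06) over a size factor, equal to the DESeq size factor of reads + 1, and reads were recovered from it. BWA 0.6.2-r126 and mm9 in the submitters' processing notes were not tied to these libraries. RNA was isolated with TRIzol, except from antibody-positive lymph nodes (miRNeasy). The 15 whole kidney samples were not analysed here.

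Kidney, TLS and lymph node of proteinuric mice were compared in 1 fit of 10 libraries with limma 3.58.1 in R 4.3.3 (trend, robust) on log2(value + 1), with a filter at a mean value of 5. Called means a Benjamini-Hochberg adjusted p under 0.05. Antibody-positive and proteinuric lymph nodes had a fit of their own. Count tests of those reads (edgeR 4.0.16, DESeq2 1.42.0), other filters, pseudocounts and scalings, the mouse as a block and leaving out libraries were alternatives. Scripts were tested on simulated data.

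Kidney and TLS were paired by mouse. Same-mouse kidney and TLS deviations from the tissue means correlated at 0.351, 0.364 and 0.454 over genes. In 9 pairs of different mice the median was -0.239 (range -0.498 to 0.361), so the ranges overlapped. For kidney and lymph node the same-mouse median was -0.326 (different mice 0.0405) and for TLS and lymph node -0.120 (0.103). Shares are percents of the mean of the 4 kidney libraries. The members and lists were chosen with earlier results of these data known. From each list, at most 4 called genes with the largest change were named (2 of the highest mean where none was called), and the 5 genes most like Aqp2 by Pearson r. One gene that this rule names is not reported here.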

Additional observations from a re-analysis of the deposited data

Results flagged for a closer look

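Aqp2 in kidney H115 (103) stood apart from the other 3 kidney libraries, which lay between 37.3 and 44.7. The gap to the nearest of them took up 0.887 of the range of the group, past the 95% limit of Dixon's test for 4 samples. Such a gap arises by chance in about 1 in 20 groups, and 9 genes were looked at. Without kidney H115, the mean TLS share of Aqp2 rose from 153% to 213%, and without TLS H6 it was 96.7%.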

How the results depend on the processing

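Between kidney and TLS, the number of members called fell from 1 to 0 with both edgeR fits, DESeq2, TMM-scaled limma, scaling to the reads outside rRNA, a mean value of at least 20 and only the 2 tissues. It rose to 2 with a pseudocount of 5 (Hsd11b2 added) and, as alternatives chosen after seeing the data, without mouse H115 or without the 3 libraries high in rRNA (Fxyd4 added). Leaving out 1 library gave 0 to 2. The number of genes called (1084) was 566 with a mean of at least 20 and 534 to 1355 with 1 library left out, the lowest without TLS H6 and 692 without kidney H115.

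The direction of Aqp3 reversed without kidney H115 (-0.24), mouse H115 (-0.18) or TLS H20 (-0.13), with a range of -0.24 to 0.37 over the libraries left out, and that of Aqp4 with DESeq2 (0.57), edgeR (0.54 and 0.40 with DESeq2 size factors and TMM) and without kidney H20 (0.45), kidney H6 (0.13) or TLS H115 (0.32), with a range of -1.23 to 0.45. The cause was not tested.

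A mean of at least 20 left 1284 genes called between kidney and lymph node, and 315 between lymph node and TLS, since fewer genes were tested. Between lymph node and TLS, all 7 lymph node libraries gave 1335 genes, leaving out the rRNA-high libraries 392 and leaving out 1 library 486 to 976, with 486 without TLS H115 and 487 without lymph node H117. Between the lymph node groups, no filter gave 8 genes and 1 library left out 0 to 5 (5 without D11). The median share over the members was 61.3% to 79.8% in all alternatives. With the mouse as a replicate block, no member changed its call between kidney and TLS, and Aqp1 kept its calls against lymph node. The other members were without a read in lymph node, so their calls against it are not given. With 343825 to 443379 reads per library, differences between libraries in members with few reads, such as Scnn1g, were not detectable.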

Other observations

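Among thin limb genes (8 of 10 in the table, 7 tested), 3 were called higher in TLS than in kidney, beside 8.62% of all genes, and none lower. Aqp1, also on this list, had a log2 fold change of 0.78 (adjusted p = 0.426). Akr1b3, aldose reductase, which makes the osmolyte sorbitol in the renal medulla, was 10.6, 5.90, 8.11 and 1.77 in kidney H6, H20, H115 and H117 and 31.4, 22.0 and 56.7 in TLS H6, H20 and H115 (log2 fold change -2.38, limma adjusted p = 0.00886). Slc14a2 (-2.32), which passed the filter through TLS alone, and Bst1 (-1.97) were the other 2. Bst1 had 0, 1, 2 and 0 reads in kidney H6, H20, H115 and H117 and 21, 14 and 3 in TLS H6, H20 and H115. It passed the filter through TLS and lymph node, so the count of 3 is not read as a result about the thin limb. Akr1b3 and Bst1 were also read in every lymph node library, at 7.24 to 19.9 and 5.67 to 10.2. Of 4 distal convoluted tubule genes tested, 2 were higher in kidney, and of 19 proximal tubule genes 14 were, with Slc22a8 at 2.56, beside 6.07% of all genes. The 2 were the thiazide-sensitive transporter Slc12a3 (2.20, adjusted p = 0.000422) and Calb1, which passed the filter through kidney alone. No thick ascending limb gene of 7 tested was called.

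Of the endothelial, red cell and adipocyte genes (8, 4 and 6 tested), none was called between kidney and TLS, beside 14.7% of all genes. Gata3, a transcription factor of principal cells that T cells also make, had no read in any kidney library and 4, 4 and 6 in TLS H6, H20 and H115. It was named after its values were seen.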
